A study of Oryza longistaminata with 15 samples.

Results

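The 84 probe sets described here are the membrane transporter genes among the tissue-enriched and tip-contrast gene lists of a rhizome study in O. longistaminata, a wild perennial African rice. They were taken from lists that the study had drawn from these same arrays, by keeping every probe set whose annotation contained the word transporter, permease, antiporter, symporter, aquaporin, channel, carrier or MATE efflux and leaving out auxin carriers, kinases and acyl carrier proteins. They came from 2663 listed probe sets, belonged to 80 loci, and stand against 57194 rice probe sets on the array. Of the 84, 66 were listed as enriched in young leaves (the YL list), 6 in an internode and 5 in a tip, and 7 were listed only because the 2 tips differed. 3 of the 66 and 1 of the 6 were also listed for the tips, so that 11 members came through that contrast in all. The lists rest on these signals, so the tissue in which a member was highest is a description and not a finding.

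Transporters move solutes that cannot cross a lipid membrane by themselves. Channels and aquaporins let ions or water pass down a gradient, carriers such as symporters and antiporters couple the movement of one solute to another, often to protons, and ABC transporters spend ATP on each cycle. In a grass, leaves load sugar and amino acids for export and exchange metabolites between chloroplast, peroxisome, mitochondrion and cytosol, whereas stems and rhizomes conduct and store what they receive. Rhizomes are underground stems, and their tips and internodes correspond to those of the aerial shoot.

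The 5 tissues of wild-type plants at active tillering were measured with 3 biological replicates each, 1 array per replicate: RT (rhizome tip, the distal 1 cm of young rhizomes), ST (shoot tip, the distal 5 mm of the tiller without its leaves), RI (rhizome internode), SI (shoot internode) and YL (young leaf). All came from 1 accession, which the study kept as a single plant, while the sample records speak of individual plants, so the spread between replicates may be that of repeated sampling. The oligonucleotides were designed on cultivated rice, and 26 members had a probe set type (10 with the suffix _x, 8 with _s, 8 with _a) that may also bind related transcripts. Values are signal intensities in array units, written as mean ± SD over 3 arrays or array by array in the order of the replicate number, and are compared within a probe set only. A signal above 49.6, the 95th percentile of 64 reporter control probe sets, was taken as detected. All 84 members were detected on all 3 arrays of at least 1 tissue and entered the fit with the 21303 probe sets that did so. Whether a lower signal reflects fewer cells of a type or less RNA per cell cannot be told apart in whole tissue. The number of arrays limits the precision, since the smallest p of an exact test is 0.1 when each side has 3 arrays.

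The labels of the tips and of 1 internode array bear on what follows. All 58 probe sets listed as enriched in rhizome tips had their highest mean on the ST-labelled arrays, and all 299 listed for shoot tips had it on the RT-labelled arrays, whereas the 61 of RI, 29 of SI and 1974 of YL matched their labels. The tip arrays are therefore called RT-labelled and ST-labelled, and a direction between them holds for the labels only. A comparison of both tips with both internodes does not depend on it. OSH1, a homeobox gene of shoot meristems and stems, was detected on all tip and internode arrays and on 0 YL arrays, and the YABBY14 probe set on all tip arrays and no others. The 2 MCM (mini-chromosome maintenance) probe sets were both detected on every tip array and on no RI or YL array. On SI replicates 1, 2 and 3, 0, 1 and 2 of them were detected, with summed signals of 29.3, 101 and 139.6. The summed signal of 42 chlorophyll-binding and photosystem probe sets, taken from the same lists, lay between 15755 and 17699 on RT-labelled and between 3058 and 3539 on ST-labelled arrays. It lay between 7380 and 16735 in RI, between 66075 and 97784 in SI and between 137460 and 164141 in YL. SI replicate 1 had the highest of the 3 SI sums of these 42 probe sets.

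**Figure D1:**
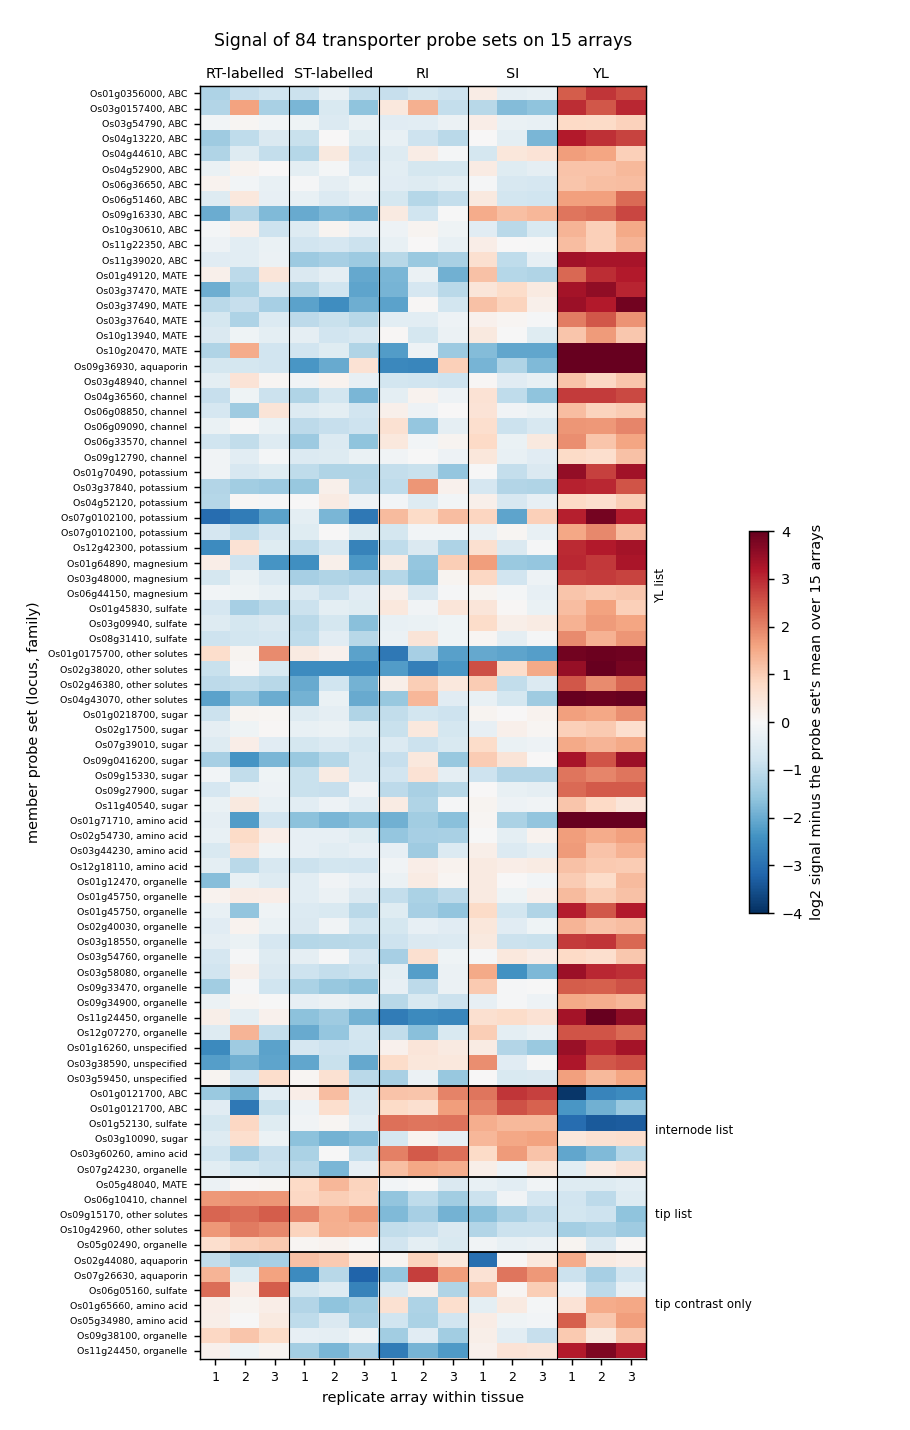
Log2 signal of each of the 84 member probe sets (rows, with locus and family) on the 15 arrays (columns, 3 replicates per tissue), minus the probe set's own mean over the arrays; red is above that mean and blue below, and the colour scale ends at 4 on either side. The 66 members of the YL list, at the top, are reddest in the 3 YL columns, by the way they were chosen, and differ in how far the other tissues fall below.

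In the YL list, YL means ran from 57.7 to 3569.5 with a median of 559.6, and the ratio of the YL mean to the next tissue ran from 1.56 to 72.0 with a median of 3.86. In each of the 66, the lowest YL array was above every array of the other tissues. The next tissue was SI for 37 members (56.1%, against 58.6% of the whole YL list of 1974), the RT-labelled tip for 15, RI for 12 and the ST-labelled tip for 2. 24 members were detected on all 15 arrays. 9 were detected in no array outside YL, so the comparisons among tips and internodes had no measured signal for these. The list needed a 1.5-fold excess over each other tissue. The member nearest to that limit was Os03g54760 at 1.56-fold, and no member can be named just below it because probe sets outside the lists carried no annotation here.

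The ABC transporters, pumps for lipids, pigments, hormones and conjugated toxins, formed the largest family of the YL list, with 12 members. Their YL means were Os11g39020 (2198 ± 51.1), Os04g52900 (1491 ± 103), Os01g0356000 (961 ± 145) and Os04g44610 (616 ± 150.7), Os03g54790 (504 ± 25.7), Os03g0157400 (426 ± 78.5), Os09g16330 (326 ± 64.9) and Os04g13220 (315 ± 54.0), and Os06g51460 (299 ± 78.8), Os11g22350 (91.3 ± 12.4), Os10g30610 (65.2 ± 12.8) and Os06g36650 (57.7 ± 2.54). Os04g13220 is annotated as a glutathione-conjugate transporter and Os09g16330 as PDR5-like, a subfamily named after a yeast drug pump. Os11g39020 gave 2256, 2170.2 and 2166 in YL, 163, 166 and 189 on RT-labelled arrays, 80.2, 87.9 and 80.2 on ST-labelled arrays, 103, 78.5 and 90.6 in RI and 345, 110.2 and 177 in SI. Every YL array of this ABC gene lay far above the highest other array, which was SI replicate 1. In 4 of the 12 (Os04g13220, Os06g36650, Os10g30610 and Os11g22350), no array outside YL was above the cutoff.

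The MATE efflux proteins export organic anions and toxins, mostly by exchange with protons or sodium. The 6 of the YL list were Os03g37490 (2029.5 ± 495), Os03g37470 (982 ± 168) and Os10g13940 (595 ± 153), and Os01g49120 (588 ± 169), Os10g20470 (556 ± 169) and Os03g37640 (326 ± 80.3). 5 of them had SI as their next tissue. Os03g37490, also listed for the tips, gave 1918, 1600.1 and 2570.4 in YL, 85.2, 94.9 and 70.8 on RT-labelled arrays, 40.6, 32.2 and 45.9 on ST-labelled arrays, 40.2, 186 and 107 in RI and 398, 334 and 204 in SI. It was not detected on any ST-labelled array, and its RI arrays lay far apart. Os10g20470 had the widest gap of the group, 453, 465 and 751 in YL against a next mean of 36.3 ± 37.7 on the RT-labelled arrays, where 1 of 3 was above the cutoff.

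Among the channels of the YL list were 2 chloride channels, Os04g36560 (756 ± 41.8) and Os03g48940 (209 ± 23.6), the cyclic nucleotide-gated channels Os06g33570 (386 ± 101) and Os06g08850 (213 ± 25.6), the ligand-gated Os06g09090 (349 ± 29.7) and the outward-rectifying potassium channel Os09g12790 (129 ± 24.2). Cyclic nucleotide-gated channels carry cations, calcium among them, in plant signalling. Potassium transporters, which take up the main cation of turgor, contributed 6 probe sets of 5 loci: Os12g42300 (994 ± 114), Os07g0102100 (789.7 ± 242) and Os04g52120 (374 ± 42.8), and Os03g37840 (133 ± 25.9) and Os01g70490 (94.4 ± 24.4), with a second probe set of Os07g0102100 at 73.6 ± 17.2. Os01g70490 was detected in YL only, as was the second probe set of Os07g0102100. The CorA-like magnesium transporters were Os03g48000 (1583 ± 58.6), Os01g64890 (706 ± 110.2) and Os06g44150 (492 ± 16.3), and SI was the next tissue of all 3. Magnesium is the central ion of chlorophyll and a cofactor of carbon fixation.

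The single aquaporin of the YL list, Os09g36930, is annotated as a plasma membrane intrinsic protein, a water channel of the cell surface. It gave 2664, 3526 and 1799 in YL, 49.0, 49.1 and 47.1 on RT-labelled arrays, 15.9, 19.6 and 119 on ST-labelled arrays, 13.2, 13.2 and 153 in RI and 21.9, 34.5 and 23.6 in SI. Outside YL only ST-labelled replicate 3 and RI replicate 3 were above the cutoff. The ammonium transporter Os04g43070 gave 2739, 1772 and 2462 in YL, 26.1, 39.7 and 29.7 on RT-labelled arrays, 31.4, 97.1 and 28.8 on ST-labelled arrays, 40.4, 289.9 and 85.7 in RI and 95.7, 71.7 and 43.9 in SI. RI replicate 2 stood above the other RI arrays, although it remained below every YL array. The phosphate transporter Os02g38020 gave 2149, 3546 and 2681 in YL, 102, 197 and 124 on RT-labelled arrays, 33.6, 33.2 and 33.3 on ST-labelled arrays, 40.9, 28.9 and 37.8 in RI and 1146, 313 and 547 in SI. It was detected in YL, in SI and on the RT-labelled arrays, and on 0 of the ST-labelled and RI arrays. Also on the list were the purine permease Os02g46380 (785 ± 160.0), whose relatives in Arabidopsis carry adenine and cytokinins, and Os01g0175700 (563 ± 11.3), with a bicarbonate transporter domain. The sulfate transporters were Os03g09940 (1207 ± 135), Os08g31410 (267 ± 45.2) and Os01g45830 (82.4 ± 19.5), and the last was detected in YL only.

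Sugar transporters move hexoses, sucrose or polyols with protons. The 7 of the YL list were Os02g17500 (2136 ± 288), Os01g0218700 (759 ± 89.8), Os09g27900 (508 ± 38.8) and Os11g40540 (365 ± 75.0), and Os09g15330 (309 ± 22.6), Os07g39010 (236 ± 16.4) and Os09g0416200 (217 ± 66.4). Os09g0416200 is annotated as a proton-hexose cotransporter, and Os09g27900 as a xylose-proton symporter. Os02g17500 gave 2229, 2366 and 1812 in YL, 889.8, 1031 and 1199 on RT-labelled arrays, 942, 985 and 825 on ST-labelled arrays, 625, 1545 and 703 in RI and 913, 1335 and 1206 in SI. It was detected on every array, and RI replicate 2 reached well above the other RI arrays. The amino acid carriers were Os12g18110 (2243 ± 134), Os01g71710 (1375 ± 306), Os02g54730 (663 ± 45.8) and Os03g44230 (407 ± 80.0). Os12g18110, annotated as a lysosomal cystine transporter, gave 2397, 2173 and 2159 in YL, 809, 503 and 684 on RT-labelled arrays, 579, 639 and 624 on ST-labelled arrays, 949, 1260.4 and 1169 in RI and 1355, 1266 and 1315 in SI. All internode arrays of this gene were above all tip arrays. The amino acid permease Os01g71710 had the largest ratio of all members: YL gave 1541, 1562 and 1021, no other array exceeded 33.5, and YL was at least 27.2-fold above each other tissue when the cutoff stood in for their signal.

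The carriers of organelles made up 11 members of the YL list. They were the peroxisomal carrier Os09g33470 (2975 ± 173), the mitochondrial-type carriers Os11g24450 (1927 ± 512), Os03g18550 (1673 ± 335), Os03g54760 (836 ± 121) and Os01g12470 (81.2 ± 14.5), the bile acid:sodium symporter family Os01g45750 (3569.5 ± 366), Os09g34900 (808 ± 54.9) and Os12g07270 (265 ± 24.2) with a second probe set of Os01g45750 at 156 ± 37.7, the nucleotide sugar transporter Os02g40030 (1568 ± 115) and the folate/biopterin transporter Os03g58080 (1037 ± 196). In Arabidopsis, proteins of the bile acid symporter and folate transporter families sit in the chloroplast envelope, and the peroxisomal carrier family brings ATP into peroxisomes. Os09g33470 gave 2891, 2859 and 3174 in YL, 206, 524 and 311 on RT-labelled arrays, 227, 189 and 172 on ST-labelled arrays, 434, 260.4 and 457 in RI and 1124, 526 and 532 in SI. SI replicate 1 lay above the other SI arrays of this peroxisomal carrier. Os03g54760, the mitochondrial-type carrier nearest to the 1.5-fold limit, gave 798, 738 and 971 in YL, 287, 445 and 318 on RT-labelled arrays, 357, 446 and 288 on ST-labelled arrays, 183, 712 and 409 in RI and 443, 609 and 553 in SI. The last 3 members had no named substrate: Os01g16260 (576 ± 92.4), Os03g38590 (555 ± 161) and Os03g59450 (506 ± 62.0). Os03g38590 is a secretory carrier-associated membrane protein, a protein of vesicle traffic that entered by the word carrier.

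SI replicate 1 was the highest SI array for 55 of the 66 members (83.3%), against 83.4% of the whole YL list and 46.1% of all tested probe sets. The median signal of the 66 was 169.9 on SI replicate 1, 75.9 on SI replicate 2 and 84.7 on SI replicate 3, beside 73.8 to 81.4 on the RI arrays and 507 to 534 on the YL arrays. On this array 51 of the 66 were above the cutoff, and 42 and 41 on the other SI arrays. The median ratio of SI replicate 1 to the mean of the other SI arrays was 1.54 for the 66 and 1.02 for all tested probe sets. The chlorophyll-binding and photosystem sum was 97784 on this array, against 66075 and 80699.9 on the other SI arrays. Its part in the SI values of the members was not tested, and calls that change without this array are given with them.

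**Figure D2:**
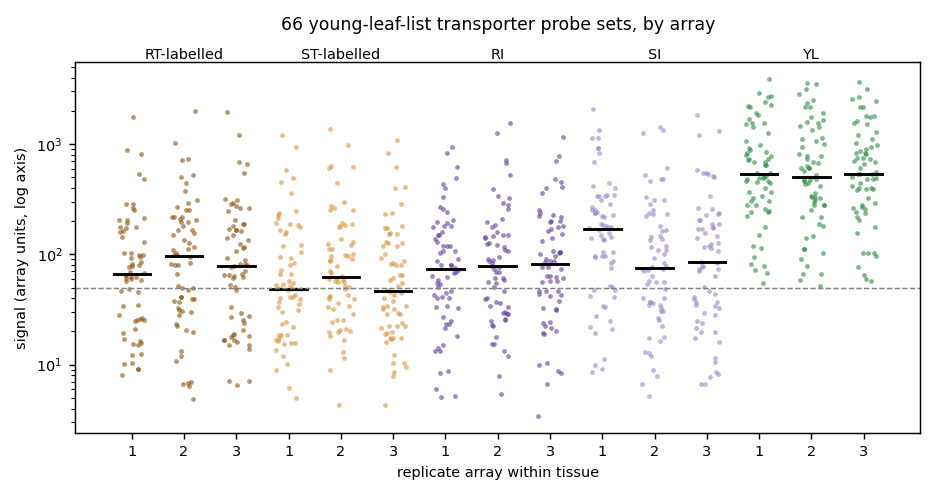
Signal (array units, log axis) of the 66 YL-list probe sets on each of the 15 arrays; each point is a probe set, the bar is the median over the 66, and the dashed line is the detection cutoff of 49.6. The median on SI replicate 1 is 169.9, above the medians of all other tip and internode arrays, and the YL medians are 507 to 534.

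At 4 loci, as the study's lists name them, 2 probe sets were members, which gives 2 readings of a locus. The 2 of Os11g24450, a mitochondrial-type carrier, correlated at r = 0.99 over the 15 arrays on the log2 scale (a description over arrays of 5 tissues). The first gave 1630.1, 2383 and 1676 in YL, 204, 158 and 192 on RT-labelled arrays, 70.6, 50.6 and 71.2 on ST-labelled arrays, 25.6, 49.2 and 37.4 in RI and 201, 263 and 250.0 in SI. The second, which is the one on the YL list, gave 1528, 2505 and 1749 in YL, 177, 116 and 169 on RT-labelled arrays, 48.1, 56.8 and 40.3 on ST-labelled arrays, 21.5, 25.9 and 24.6 in RI and 237, 253 and 226 in SI. Both put SI and the RT-labelled arrays above the ST-labelled and RI arrays. The 2 of Os01g0121700 (r = 0.95), whose array annotation gives them different gene symbols (LOC4326044 and LOC4326045), are described with the internode members. The 2 of Os01g45750 (r = 0.82) differed in what they could measure. The first was detected on all arrays, with 3873, 3163 and 3673 in YL, 1769.8, 1979.8 and 1959.7 on RT-labelled arrays, 1215, 1378 and 1078 on ST-labelled arrays, 837, 669 and 774 in RI and 2089, 1442 and 1834 in SI. The second was detected in YL only, with 176, 112 and 179 in YL, 16.3, 6.69 and 17.8 on RT-labelled arrays, 13.5, 13.2 and 9.46 on ST-labelled arrays, 14.1, 7.87 and 6.70 in RI and 33.7, 12.0 and 8.59 in SI. The 2 of Os07g0102100 (r = 0.77) differed likewise. The first gave 642, 1069 and 658 in YL, 9.15, 10.7 and 16.9 on RT-labelled arrays, 56.8, 20.9 and 10.3 on ST-labelled arrays, 180.1, 128 and 177 in RI and 137, 17.4 and 146 in SI. The second gave 71.5, 91.7 and 57.6 in YL, 15.3, 12.0 and 15.2 on RT-labelled arrays, 17.4, 24.5 and 17.4 on ST-labelled arrays, 15.1, 22.3 and 22.6 in RI and 20.9, 25.6 and 19.6 in SI, with no array outside YL above the cutoff, so that the RI signal of the first probe set had no second reading.

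Of the 6 internode members, 3 were listed for RI. The sulfate transporter Os01g52130 gave 57.7, 169.7 and 67.4 on RT-labelled arrays, 85.6, 101 and 70.9 on ST-labelled arrays, 438, 419 and 424 in RI, 262, 231 and 232 in SI and 11.3, 9.29 and 9.48 in YL. The RI arrays lay close together (SD 9.89), and YL was not detected. The amino acid transporter Os03g60260 gave 14.7, 10.1 and 13.5 on RT-labelled arrays, 10.6, 25.5 and 13.1 on ST-labelled arrays, 104, 139.6 and 119 in RI, 43.5, 83.5 and 56.1 in SI and 6.0, 7.50 and 11.6 in YL. Outside the internodes no array of it reached the cutoff. The folate/biopterin transporter Os07g24230 gave 77.6, 62.6 and 57.2 on RT-labelled arrays, 49.1, 29.0 and 82.1 on ST-labelled arrays, 236, 298 and 284 in RI, 121, 88.5 and 148 in SI and 76.6, 129 and 150.3 in YL. This second folate transporter of the set thus had its highest mean in RI (273 ± 32.9), unlike Os03g58080 with its highest in YL.

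The other 3 internode members were listed for SI. The ABC transporter locus Os01g0121700 was read by 2 probe sets, which the array annotation gives to different genes. The first gave 75.0, 54.7 and 156 on RT-labelled arrays, 251, 492 and 133 on ST-labelled arrays, 459, 449 and 831 in RI, 909.8, 1506 and 1391 in SI and 14.2, 33.5 and 36.3 in YL. The second gave 131, 24.9 and 95.6 on RT-labelled arrays, 157, 286 and 119 on ST-labelled arrays, 303, 279 and 574 in RI, 709, 1055 and 922 in SI and 35.9, 47.3 and 64.3 in YL. Both readings had the same order of tissue means, SI, RI, ST-labelled, RT-labelled and YL from high to low, with SI means of 1269 ± 316 and 895 ± 175. The mannitol transporter Os03g10090, of a family of polyol and monosaccharide carriers, gave 892, 2030.1 and 1084 on RT-labelled arrays, 405, 339.7 and 380.1 on ST-labelled arrays, 769, 1396 and 1011 in RI, 3189.6, 3657 and 3866 in SI and 1714, 1933 and 2001 in YL. It was detected on every array and its SI mean was 3571 ± 347.

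The 5 tip members were listed for 1 tip each, and Os09g15170 was nearest to the 1.5-fold limit at 1.52-fold. The xanthine/uracil permease Os09g15170, a nucleobase carrier, gave 209, 197 and 225 on RT-labelled arrays, 163, 115 and 137 on ST-labelled arrays, 12.2, 16.8 and 11.3 in RI, 13.0, 17.1 and 20.3 in SI and 25.3, 23.6 and 13.7 in YL. The sodium solute symporter Os10g42960 gave 81.8, 104 and 93 on RT-labelled arrays, 45.8, 65.8 and 64.0 on ST-labelled arrays, 12.5, 13.1 and 16.7 in RI, 11.1, 13.6 and 13.7 in SI and 9.63, 10.5 and 9.15 in YL. No internode or YL array of either was above the cutoff. The mechanosensitive channel Os06g10410, a pore opened by membrane tension, gave 243, 256 and 249 on RT-labelled arrays, 132, 146 and 135 on ST-labelled arrays, 24.7, 36.8 and 28.4 in RI, 40.7, 66.8 and 46.8 in SI and 42.9, 35.6 and 51.5 in YL. The phosphosulfate transporter Os05g02490, a carrier of the activated sulfate used in sulfation, gave 116, 140.2 and 150.7 on RT-labelled arrays, 77.7, 80.3 and 71.7 on ST-labelled arrays, 43.2, 55.9 and 47.4 in RI, 66, 58.7 and 62.4 in SI and 78.4, 48.7 and 74.4 in YL. These 4 were listed for the shoot tip and were highest on the RT-labelled arrays. The MATE protein Os05g48040 was the only member listed for the rhizome tip, where an auxin efflux carrier, left out by the rule, was listed too. It gave 52.5, 64.4 and 65.6 on RT-labelled arrays, 108, 156 and 115 on ST-labelled arrays, 57.8, 60.5 and 41.8 in RI, 50.3, 46.2 and 56.3 in SI and 43.3, 43.6 and 46.1 in YL. It was highest on the ST-labelled arrays, 2.08-fold above the next tissue mean and 2.85-fold above the lowest. The ratios that the study printed for this probe set were larger than those of these arrays against every other tissue.

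**Figure D3:**
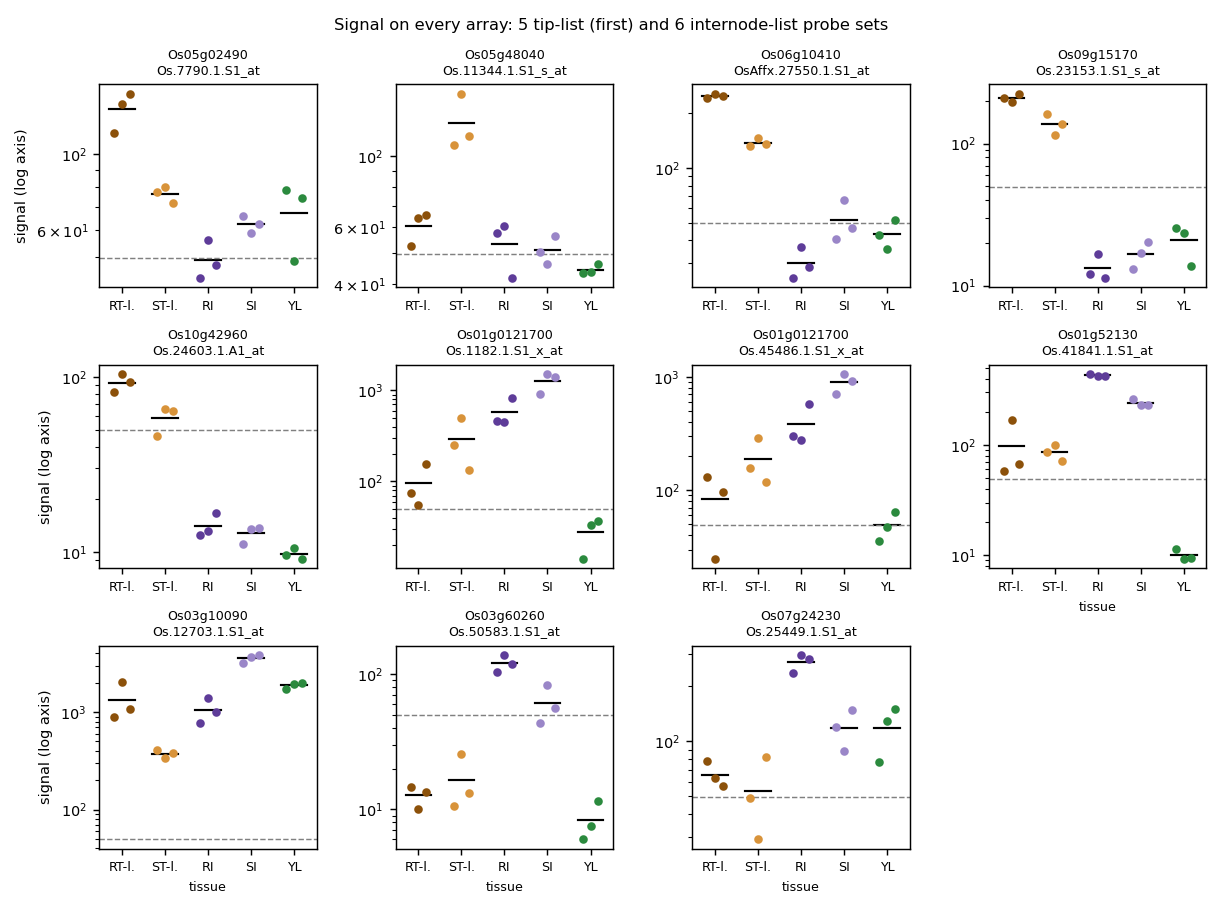
Signal (log axis) of the 5 tip-list probe sets, then the 6 internode-list probe sets, on the 3 arrays (points) of each tissue with their mean (bar); RT-l. and ST-l. are the RT-labelled and ST-labelled tips, and the dashed line is the cutoff of 49.6. Os09g15170 and Os10g42960 are above the cutoff on tip arrays alone, and both probe sets of Os01g0121700 are highest in SI.

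The remaining members were listed because the tips differed. Of the 11 that came through this contrast, 10 were higher on all RT-labelled arrays than on all ST-labelled arrays and 1 was lower. The exception was the tonoplast-type aquaporin Os02g44080, a water channel of the vacuole, with 29.0, 22.2 and 22.7 on RT-labelled arrays, 129.7, 117 and 79.1 on ST-labelled arrays, 62.6, 106 and 78.7 in RI, 7.13, 59.6 and 76.7 in SI and 162, 73.1 and 69.1 in YL. The plasma membrane aquaporin Os07g26630 gave 295, 82.7 and 353 on RT-labelled arrays, 20.1, 53.5 and 12.6 on ST-labelled arrays, 39.5, 788 and 369.8 in RI, 173, 516 and 385 in SI and 64.2, 45.9 and 68.0 in YL. Its replicates lay far apart within RT-labelled tips and within RI. The sulfate transporter Os06g05160 gave 465, 117 and 519 on RT-labelled arrays, 59.2, 68.2 and 15.3 on ST-labelled arrays, 64.9, 116 and 42.3 in RI, 209, 103 and 192 in SI and 84.4, 47.1 and 78.6 in YL. RT-labelled replicate 2 was below both other RT-labelled arrays in both of these genes.

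The amino acid permease Os01g65660 gave 129, 116 and 128 on RT-labelled arrays, 47.9, 35.1 and 40.9 on ST-labelled arrays, 164, 45.4 and 172 in RI, 81.0, 137 and 103 in SI and 157, 297 and 317 in YL. The amino acid carrier Os05g34980 gave 77.7, 66.2 and 84.7 on RT-labelled arrays, 33.1, 44.4 and 27.1 on ST-labelled arrays, 38.2, 27.7 and 39.3 in RI, 82.6, 59.8 and 61.7 in SI and 347, 142 and 211 in YL. Neither was detected on an ST-labelled array. The mitochondrial-type carrier Os09g38100 gave 84.2, 103 and 81.2 on RT-labelled arrays, 38.5, 37.3 and 43 on ST-labelled arrays, 18.4, 34.9 and 18.4 in RI, 55.9, 35.9 and 25.2 in SI and 99.2, 62.4 and 100.1 in YL, so that RT-labelled tips and YL differed by less than their spread. It had the smallest ratio of the highest to the next tissue of all members (1.03), followed by Os02g44080 (1.07) and Os07g26630 (1.11). Of the 11, limma called 3 (more than 2-fold and adjusted p below 0.05), all higher on RT-labelled arrays: Os02g38020, Os03g10090 and the first probe set of Os11g24450. This is the contrast that chose them and is given as a description.

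The PDR5-like ABC transporter Os09g16330, the vesicle protein Os03g38590 and the K+ transporter Os07g0102100 were lower in the growing tips than in the internodes behind them, and 58 of 73 members were not called either way. Tips were compared with internodes in the 73 members that had not been chosen on that difference, as the mean of both tips minus the mean of both internodes on the log2 scale. limma called 3 higher and 12 lower in the tips (more than 2-fold and adjusted p below 0.05). Over all tested probe sets, 15.8% were called higher and 15.6% lower (31.4% in all), so the share called lower (16.4%) was near the background and the share called higher (4.11%) was below it. Of the 73, 66 were of the YL list, and members of the tip and internode lists were left out. All tested probe sets include such probe sets, so the shares are not like for like and the low share called higher may come from the choice. The median difference was −0.21, against −0.01 over all tested probe sets. For 8 members (11%) all internode arrays were above all tip arrays, against 11.5% of all tested probe sets, and for 0 the reverse held, against 16.4%. The 73 include the 9 members detected only in YL. Leaving these out, a choice made after seeing the data, gave 64 members with the same 3 and 12 calls, 49 not called, a median of −0.22 and 7 without overlap. By family, all 4 members for phosphate, ammonium, purines or bicarbonate, grouped as other solutes, were called, 3 lower and 1 higher. So were 2 of 3 with no named substrate, both lower. Of the others, limma called 1 of 12 ABC transporters, 1 of 6 channels, 1 of 6 potassium transporters and 1 of 7 sugar transporters lower, and 1 MATE protein and 1 organelle carrier each way out of 6 and 13. It called 1 of 3 aquaporins lower, and 0 of 6 amino acid carriers, 0 of 4 sulfate and 0 of 3 magnesium transporters, of which 2, 3 and 0 had an unadjusted p under 0.05.

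The K+ transporter Os07g0102100, by its first probe set, whose arrays are given above, was lower in the tips (−2.68 ± 0.53 (SE), adjusted p = 0.00103), with 1 of 6 tip arrays and 5 of 6 internode arrays above the cutoff. With values under the cutoff set to it, its difference was −1.32. The vesicle protein Os03g38590 gave 17.0, 20.8 and 18.3 on RT-labelled arrays, 18.6, 42.1 and 18.9 on ST-labelled arrays, 130.4, 107 and 106 in RI, 284, 57.2 and 77.5 in SI and 739.5, 445 and 480.5 in YL. It was at least 2.24-fold lower in the tips, where no array was detected (log2 difference −2.37 ± 0.35 (SE), adjusted p = 0.000127). The PDR5-like ABC transporter Os09g16330 gave 15.9, 28.1 and 18.7 on RT-labelled arrays, 15.6, 18.1 and 16.9 on ST-labelled arrays, 80.7, 36.3 and 63.0 in RI, 176, 147 and 158 in SI and 279.8, 298 and 400.1 in YL. It was at least 1.92-fold lower in the tips (−2.37 ± 0.21 (SE), adjusted p = 1.92e-06) and no tip array was detected. All internode arrays of both genes were above all tip arrays.

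The MATE protein Os03g37490 was lower in the tips (−1.55 ± 0.32 (SE), adjusted p = 0.0014), as were the aquaporin Os07g26630 (−1.96 ± 0.67 (SE), adjusted p = 0.0266), the purine permease Os02g46380 (−1.49 ± 0.32 (SE), adjusted p = 0.00207) and the cyclic nucleotide-gated channel Os06g33570 (−1.20 ± 0.24 (SE), adjusted p = 0.00106). Only Os06g33570 among these 4 had no overlap between tip and internode arrays. The hexose cotransporter Os09g0416200 (−1.38), the putative transporter Os01g16260 (−1.18) and the peroxisomal carrier Os09g33470 (−1.01) were lower as well, with adjusted p of 0.00404, 0.00366 and 0.00605. Os01g16260 was detected on no tip array, so that its tips were at least 1.04-fold lower. Os09g0416200 was above the cutoff on 1 of 6 internode arrays and 0 of 6 tip arrays. The ammonium transporter Os04g43070 (−1.13 ± 0.44 (SE), adjusted p = 0.0477) and the phosphate transporter Os02g38020 (−1.09 ± 0.28 (SE), adjusted p = 0.00589) completed the 12.

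Of the 3 called higher in the tips, the bicarbonate transporter domain gene Os01g0175700 gave 61.9, 41.4 and 139.9 on RT-labelled arrays, 49.2, 42.5 and 8.63 on ST-labelled arrays, 5.21, 15.3 and 8.37 in RI, 9.18, 8.86 and 8.26 in SI and 551, 574 and 564 in YL. Its difference was 2.30 ± 0.43 (SE), adjusted p = 0.000755, with 2 of 6 tip arrays and 0 of 6 internode arrays above the cutoff. The MATE protein Os10g20470 gave 12.5, 79.7 and 16.6 on RT-labelled arrays, 16.6, 20.2 and 12.4 on ST-labelled arrays, 5.99, 24.8 and 10.4 in RI, 8.52, 6.66 and 6.69 in SI and 453, 465 and 751 in YL (1.14 ± 0.44 (SE), adjusted p = 0.0448). Only 1 tip array of it was detected. The mitochondrial-type carrier Os09g38100 was higher by 1.03 ± 0.23 (SE), adjusted p = 0.00233, with 3 of 6 tip arrays, all RT-labelled, and 1 of 6 internode arrays above the cutoff. Setting every value under the cutoff to the cutoff left 0 of the 3 called. The same setting left 8 of the 12 lower calls, without those of Os01g16260, Os04g43070, Os07g26630 and Os09g0416200. The difference of Os09g0416200 was then −0.003 and that of Os01g16260 −0.40.

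Some of these 15 calls rested on single arrays. Os04g43070 and Os10g20470 kept theirs in 3 of the 15 fits that left out 1 array, and in the others the adjusted p reached 0.109 and 0.107. The 3 fits were those without ST-labelled replicate 2, RI replicate 1 and SI replicate 3 for Os04g43070, and without RT-labelled replicate 1, RT-labelled replicate 3 and RI replicate 2 for Os10g20470. Os09g33470 lost its call without RT-labelled replicate 1, RT-labelled replicate 3, ST-labelled replicate 2, ST-labelled replicate 3, RI replicate 1, RI replicate 3 or SI replicate 1 (difference down to −0.82), and Os07g26630 without RT-labelled replicate 2, ST-labelled replicate 1, ST-labelled replicate 3, RI replicate 2, RI replicate 3, SI replicate 2 or SI replicate 3 (adjusted p of up to 0.0671). Without SI replicate 1, 8 members were called lower in place of 12, and Os01g16260 had a difference of −0.91, under the 2-fold limit. Os02g38020 lost its call without RT-labelled replicate 1 or SI replicate 1 (−0.85 at the least), and Os09g38100 without RT-labelled replicate 2, RI replicate 1, RI replicate 3 or SI replicate 3 (0.89 at the least). With an offset of 16 added to every signal, Os01g16260, Os04g43070, Os09g0416200, Os09g33470, Os09g38100 and Os10g20470 lost their calls. Quantile normalization ended those of Os09g33470 and Os09g38100, median centring those of Os04g43070 and Os09g33470, and no filter those of Os04g43070 and Os10g20470. Os04g43070 also lost its call with the cutoff at the 90th percentile or with 2 of 3 arrays above the cutoff.

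**Figure D4:**
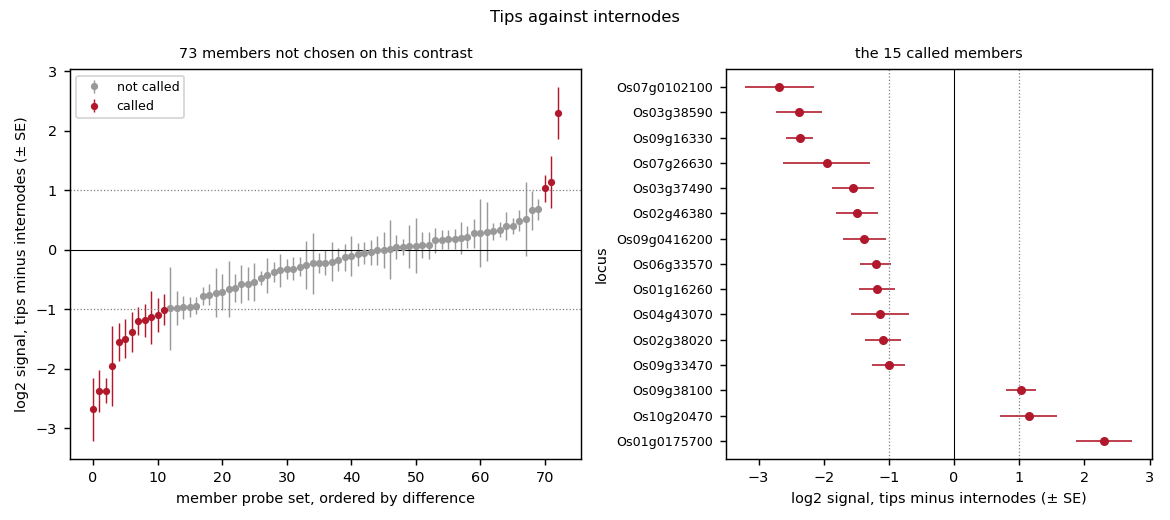
Log2 signal of tips minus internodes with its standard error, for the 73 members not chosen on that contrast in rising order (left; red, called with more than 2-fold and adjusted p below 0.05) and for the 15 called loci by name (right); dotted lines mark 2-fold. Of the 15, 12 lie below 0 and 3 above.

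The phosphate transporter Os02g38020, the mitochondrial-type carrier Os11g24450 and the bile acid symporter Os01g45750 were lower in the underground internode, RI, than in the aerial one, SI. RI was compared with SI in the 78 members that were not chosen for an internode. limma called 0 higher and 6 lower in RI, while 0.338% of all tested probe sets were called higher and 1.56% lower (1.9% in all). At an unadjusted p under 0.05, 25 of the 78 (32.1%) and 11% of all tested probe sets differed. The median was −0.34, against −0.08 over all tested probe sets, and for 24 members (30.8%) every SI array was above every RI array, against 10.3% of all tested probe sets, while 3 (3.85%) showed the reverse, against 4.71%. Of the 78, 66 were of the YL list, and SI was the next tissue for 58.6% of the whole YL list and 56.1% of these 66. RI against SI was not counted over the whole YL list, so a trait of transporters cannot be told apart here from a trait of that list. Without the 9 members detected only in YL, the same 0 and 6 of 69 were called, with 24 and 2 free of overlap. The organelle carriers among the 78 were 14 probe sets of 12 loci. All 14 had a lower mean log2 signal in RI, as did 74.4% of the 78 members and 58.0% of all tested probe sets. Of the 14, 1 was below the cutoff on every RI and SI array. limma called 3, which read 2 loci. Of the 7 sugar transporters, 6 had a lower mean log2 signal in RI and 0 were called (5 at an unadjusted p under 0.05). The chlorophyll-binding and photosystem sum was likewise lower on every RI array (7380 to 16735) than on every SI array (66075 to 97784). The part of green tissue in these differences was not tested.

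The phosphate transporter Os02g38020 was at least 11.7-fold lower in RI, where no array was detected (−4.03 ± 0.40 (SE), adjusted p = 7.39e-05): it gave 40.9, 28.9 and 37.8 in RI, against 1146, 313 and 547 in SI. The mitochondrial-type carrier Os11g24450 was at least 4.8-fold lower by its second probe set (−3.31 ± 0.23 (SE), adjusted p = 3.32e-06) and at least 4.77-fold lower by its first (−2.71 ± 0.26 (SE), adjusted p = 6.14e-05). Its 2 readings thus gave the same direction, and neither was detected in RI. The bile acid symporter Os01g45750, by its first probe set, gave 837, 669 and 774 in RI and 2089, 1442 and 1834 in SI (−1.22 ± 0.19 (SE), adjusted p = 0.00331). Its other probe set was below the cutoff in both. The amino acid transporter Os02g54730 gave 75.0, 87.2 and 87.9 in RI, 218, 165 and 239.7 in SI, 177, 375 and 265 on RT-labelled arrays, 175, 176 and 156 on ST-labelled arrays and 692, 610.1 and 686 in YL (−1.30 ± 0.25 (SE), adjusted p = 0.0153). The PDR5-like Os09g16330 gave 80.7, 36.3 and 63.0 in RI and 176, 147 and 158 in SI (−1.49 ± 0.29 (SE), adjusted p = 0.0187).

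The calls of Os02g38020, Os11g24450 and Os01g45750 held in all 15 fits that left out 1 array. Os02g54730 lost its call without RI replicate 1, RI replicate 3 or SI replicate 3 (adjusted p of up to 0.0663), and Os09g16330 without RI replicate 3 or SI replicate 3 (adjusted p of up to 0.0576). Without SI replicate 1, limma also called the putative transporter Os01g16260 higher in RI (1.66 ± 0.29 (SE), adjusted p = 0.00781). It gave 67.7, 83.8 and 76.4 in RI, 75.0, 26.6 and 21.7 in SI, 10.3, 22.2 and 13.7 on RT-labelled arrays, 37.4, 33.7 and 34.2 on ST-labelled arrays and 651, 473 and 605 in YL. SI replicate 1 was the only SI array of this gene above the cutoff, at the level of the RI arrays.

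Between the RT-labelled and ST-labelled tips, 67 members had not been chosen on that difference, and limma called 0 higher and 0 lower, against 0.671% and 0.192% of all tested probe sets (0.864% in all). At an unadjusted p under 0.05, 11 (16.4%) and 10.3% of all tested probe sets differed. The median was 0.26, against 0.09 over all tested probe sets, and for 12 members (17.9%) every RT-labelled array was above every ST-labelled array, against 18.3% of all tested probe sets, while 2 (2.99%) showed the reverse, against 6.52%. Without the members detected only in YL, 10 and 1 of 58 did so. Without SI replicate 1 limma called Os01g16260 lower on the RT-labelled arrays (−1.26 ± 0.26 (SE), adjusted p = 0.0348), although no tip array of it was above the cutoff.

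The difference between the 2 rhizome against shoot contrasts (RT-labelled minus ST-labelled, minus RI minus SI) was tested in the 62 members that neither contrast had chosen. limma called 3 higher and 1 lower at an adjusted p under 0.05, beside 2.4% and 0.615% of all tested probe sets (3.01% in all). The 62 were all of the YL list, which the tested probe sets as a whole were not. The median was 0.55, against 0.16. A positive value means that RT-labelled tips stood higher against ST-labelled tips than RI stood against SI. The bile acid symporter Os01g45750, by its first probe set, had 1.87 ± 0.26 (SE), adjusted p = 0.00132. Its means were 1903 ± 116 on RT-labelled and 1223 ± 149.9 on ST-labelled arrays, and 760.1 ± 84.8 in RI and 1788 ± 326 in SI. The amino acid transporter Os02g54730 had 1.93 ± 0.35 (SE), adjusted p = 0.00836, with 272 ± 99.3 on RT-labelled and 169 ± 11.3 on ST-labelled arrays, and 83.4 ± 7.26 in RI and 208 ± 38.1 in SI. Both calls held in all 15 fits that left out 1 array.

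The PDR5-like Os09g16330 had 1.76 ± 0.41 (SE), adjusted p = 0.0387, and Os01g16260 had −2.37 ± 0.56 (SE), adjusted p = 0.0408. Neither was detected on any tip array, and they kept their calls in 3 and 2 of the 15 fits that left out 1 array, and in the others the adjusted p reached 0.0998 and 0.0996. The calls were kept without RT-labelled replicate 1, RI replicate 1 and YL replicate 3 for Os09g16330, and without RT-labelled replicate 2 and SI replicate 1 for Os01g16260. With the tip labels exchanged, 0 of the 62 were called in either direction, and the value of Os01g16260 became 0.15. Leaving out the 9 members detected only in YL left the same 3 and 1 calls among 53. The chlorophyll-binding and photosystem sums stood higher on the RT-labelled than on the ST-labelled arrays and lower in RI than in SI, and their part in these values was not tested. Among members chosen on the tip contrast, and so only described, Os02g38020 had 6.06, Os11g24450 had 4.97 and 4.25 by its 2 probe sets, and the mannitol transporter Os03g10090 had 3.54.

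**Figure D5:**
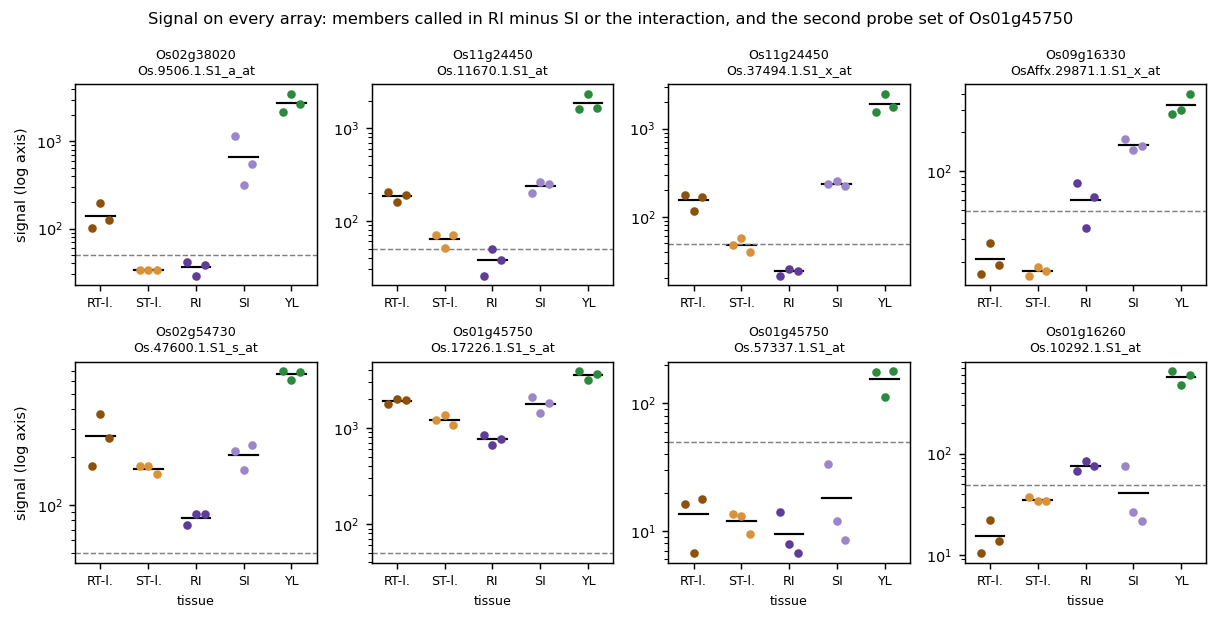
Signal (log axis) on the 3 arrays (points) of each tissue with their mean (bar) for the members called between RI and SI or in the difference of the 2 contrasts, and for the second probe set of Os01g45750; RT-l. and ST-l. are the RT-labelled and ST-labelled tips, and the dashed line is the cutoff of 49.6. In the first 6 panels every SI array is above every RI array.

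YL could be tested only in members chosen for another tissue. Tips against YL was open for 12, of which limma called 3 higher and 4 lower in the tips. Over all tested probe sets 23.2% were called higher and 23.6% lower (46.8% in all), and the median was −0.13 for the 12, against 0.05 over all. The sulfate transporter Os01g52130 was at least 1.73-fold higher in the tips (3.10 ± 0.28 (SE), adjusted p = 1.21e-06). The ABC transporter Os01g0121700 was at least 2.98-fold higher by its first probe set (2.52 ± 0.46 (SE), adjusted p = 0.000412), and by its second the difference was 1.19 ± 0.47 (SE), adjusted p = 0.0441, a call lost without RT-labelled replicate 1, RT-labelled replicate 3, ST-labelled replicate 1, ST-labelled replicate 2, RI replicate 1, SI replicate 2, SI replicate 3, YL replicate 1 or YL replicate 2 (adjusted p of up to 0.157). Lower in the tips were the amino acid carriers Os05g34980 (−2.10 ± 0.27 (SE), adjusted p = 2.16e-05) and Os01g65660 (−1.78 ± 0.39 (SE), adjusted p = 0.0015), the mannitol transporter Os03g10090 (−1.46 ± 0.25 (SE), adjusted p = 0.000267) and the folate/biopterin transporter Os07g24230 (−1.01 ± 0.31 (SE), adjusted p = 0.0129). The last lost its call without RT-labelled replicate 2, RT-labelled replicate 3, ST-labelled replicate 2, YL replicate 2 or YL replicate 3 (adjusted p of up to 0.0702).

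Internodes against YL was open for 11, with 1 called higher and 3 lower in the internodes. Over all tested probe sets 18% were called higher and 19.9% lower (37.9% in all), and the median was −0.26 for the 11, against 0.01 over all. The aquaporin Os07g26630 was higher in the internodes (2.21 ± 0.82 (SE), adjusted p = 0.0377), a call lost without RI replicate 2, RI replicate 3, SI replicate 2, SI replicate 3, YL replicate 1, YL replicate 2 or YL replicate 3 (adjusted p of up to 0.110). Os05g34980 (−2.18 ± 0.27 (SE), adjusted p = 3.24e-05), the mitochondrial-type carrier Os09g38100 (−1.56 ± 0.28 (SE), adjusted p = 0.000598) and Os01g65660 (−1.20 ± 0.39 (SE), adjusted p = 0.0201) were lower. Os01g65660 lost its call without RI replicate 2, YL replicate 2 or YL replicate 3 (adjusted p of up to 0.0887). The comparisons with YL share the YL arrays, and the spread of every test is pooled over all 5 tissues.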

How the data were processed

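RNA of 5 tissues was hybridised to 15 Affymetrix GeneChip Rice Genome Arrays, 3 per tissue, with 5 µg of total RNA per labelling. The deposited values are linear signal intensities, which the authors made with GCOS and scaled over all arrays in dChip. The array has 57381 probe sets, of which 187 are controls. Groups came from the sample labels. Values under 1 were set to 1, log2 was taken, and 1 mean per tissue was fitted over all 15 arrays with limma 3.58.1 in R 4.3.3. P-values were adjusted by Benjamini-Hochberg over the 21303 probe sets above 49.6 on all 3 arrays of a tissue, and calls needed more than a 2-fold change with an adjusted p below 0.05 (no fold minimum for the difference of contrasts). Per array, 17943 to 18834 rice probe sets were above that cutoff and the median signal was 21.9 to 23.6.

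A fold is written "at least" where all arrays of one side were below the cutoff, which then replaced their signal. A comparison used only members whose list had not been chosen on it. A second probe set of a locus chosen on it was left out too, a choice made after its values were seen. The lists were screened over all 5 tissues on these same arrays. The members, families and marker lists were chosen with earlier results of these data known. Every member is named with the mean in its highest tissue, and all 15 arrays are given for members of the tip and internode lists, the 10 highest YL means, the largest called differences, loci with 2 probe sets and the 3 smallest ratios. Loci and annotations came from the study's lists, and 67 members have 1 gene symbol in the array annotation, 1 has several and 16 none. Alternatives were another normalization, cutoff, filter, treatment of low values, fold minimum, a replicate block and each array left out. The script was tested on simulated data. Plots used matplotlib 3.10.9 (Python 3.11.15). No genome or sequence was used here.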

Additional observations from a re-analysis of the deposited data

Results flagged for a closer look

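In all, 4 transporter genes differed between tips and internodes in their rhizome against shoot contrast, by the test of that difference in limma. They were 4 of 62 members (6.45%), against 3.01% of all tested probe sets. The 62 were all of the YL list, which the tested probe sets as a whole were not, so these shares are not like for like. The bile acid symporter Os01g45750 had 1.87 on the log2 scale (adjusted p = 0.00132) and the amino acid transporter Os02g54730 had 1.93 (adjusted p = 0.00836). The PDR5-like ABC transporter Os09g16330 had 1.76 (adjusted p = 0.0387) and the putative transporter Os01g16260 had −2.37 (adjusted p = 0.0408). The last 2 had no tip array above the cutoff and lost their calls with the replicate block and in 12 (Os09g16330) and 13 (Os01g16260) of 15 fits that left out 1 array. Both also lost their calls without a filter. Quantile normalization ended that of Os09g16330. Median centring, an offset of 16 and values under the cutoff set to it each ended that of Os01g16260. The values rest on the tip labels, and with the labels exchanged 0 of 62 members were called.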

How the results depend on the processing

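Apart from the exchange of tip labels, no called difference of a single member changed direction. Of 197 called differences, between 166 and 195 kept their call by alternative, with the fewest where values under the cutoff were set to it. At the 99th percentile cutoff all 191 that were tested kept it. Most of the 197 lay on a contrast that had chosen the member. Among them were 65 calls of YL-list members between tips and YL and 61 between internodes and YL. That these held was largely set by the choice. Exchanging the tip labels, tried for the difference of contrasts, ended all 15 calls and turned 6: Os01g16260 (0.15) and, chosen for the tips, Os05g34980 (−0.19), Os06g05160 (−1.71), Os05g02490 (−0.46), Os09g38100 (−0.47) and Os06g10410 (−0.092). It would turn every sign between the tips themselves. Of the 36 calls independent of the lists, 15 held under every alternative tried on them, and 21 were lost under at least 1. The exchange was not tried on those that held, none of which was a difference of contrasts. Without at least 1 array, 15 were lost. The count of members higher in tips than internodes (3) was 0 with values under the cutoff set to it, 1 with an offset of 16 and 7 without a fold minimum. The count lower (12) was 8 with values under the cutoff set to it, 8 with an offset of 16 and 20 without a fold minimum. The difference of contrasts (3 higher, 1 lower) gave 5 higher and 0 lower with values under the cutoff set to it, and 0 and 0 with the tip labels exchanged; its count lower was 0 with median centring, without a filter, with an offset of 16 and with the replicate block. Internodes against YL, 1 higher, gave 0 without a filter and 2 without a fold minimum. Counting second probe sets, added after seeing the data, gave 1 member higher on the RT-labelled arrays, 4 higher in the difference of contrasts, 5 lower in tips than YL and 4 lower in internodes than YL. Leaving out the 9 members with no tip or internode array above the cutoff, also added after seeing the data, changed no count. With each array left out in turn, tips against internodes gave 1 to 3 higher and 8 to 14 lower, RI against SI 0 to 1 higher and 4 to 8 lower, RT-labelled against ST-labelled 0 to 0 higher and 0 to 1 lower, the difference of contrasts 2 to 4 higher and 0 to 1 lower, tips against YL 2 to 4 higher and 3 to 4 lower, and internodes against YL 0 to 1 higher and 2 to 3 lower. In 0 of 10 tissue pairs were all correlations of same-numbered arrays over 0.1, although RI and SI reached r = 0.62, 0.44 and 0.08. The replicate block gave 2 higher and 0 lower in the difference of contrasts, 2 higher in tips against YL and the same counts as without it elsewhere, RI against SI included. This block fits the same replicate effect in all 5 tissues, so it cannot show whether RI and SI arrays were paired. Signals near the cutoff and 3 arrays per tissue limit what could be detected.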
